A study of Homo sapiens with 4 samples.

Results

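The genes described here are those that write, erase and read DNA methylation, measured in MG and non-MG cells of HCT116. There were 9 of them among 21611 named genes with a probe on the array, chosen by name and found through the RefSeq accession of their probes. They are the methyltransferase genes DNMT1, DNMT3A, DNMT3B and DNMT3L, the cofactor gene UHRF1, the eraser genes TET1, TET2 and TET3, and the reader gene MBD2. HCT116 is a human colorectal carcinoma line. MG cells are the subpopulation that crossed a transwell membrane over repeated rounds of selection, and non-MG cells are the one that stayed behind, so each is an enriched pool and not a clone. Each was treated with 5 µM 5-azacytidine for 48 h or kept as a control, which makes 4 groups. The control is called control in the labels and vehicle in the paper, without a named solvent, and is called vehicle below. Each group was hybridized to 1 one-colour array, so no value has a replicate and no test between conditions was made. The non-MG cells lay in slide row 1 and the MG cells in row 2, with vehicle in column 3 and 5-azacytidine in column 4, so that slide position and group cannot be told apart.

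DNA methylation is copied and removed by separate sets of proteins. DNMT1 restores methyl groups on the new strand after replication, and UHRF1 brings it there by binding hemimethylated CpG sites. DNMT3A and DNMT3B methylate unmarked sites, DNMT3L is their cofactor in germ cells and has no activity of its own, and the TET proteins oxidize 5-methylcytosine as a step towards its removal. MBD2 binds methylated CpG sites and brings the NuRD deacetylase complex to them. In HCT116 cells DNMT1 and DNMT3B are known to maintain most of the methylation together. 5-Azacytidine enters RNA and, after reduction, DNA, where it traps the methyltransferases and leads to loss of the DNMT1 protein. The arrays measured mRNA, not protein or activity.

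Sequences around the start sites of UHRF1 and DNMT1 are shown because these had the largest differences between the cell types with vehicle among the 9. HELLS, a chromatin remodeler that maintenance methylation needs, is shown as a partner that differed in the same direction. DNMT3B is shown as a writer that stayed within 1.5-fold, which DNMT1 also did. Windows of 250 bases before and 50 after the start were searched on both strands for TTTCCCGC, TTTCGCGC, TTTGCCGC and TTTGGCGC, the spellings of the binding motif of E2F factors, which drive S-phase genes. Matches on opposite strands can overlap where both hold GCGC. RefSeq windows were found for 8 of the 9 genes, with DNMT3L unmatched. The letters were in 3 of the 19 windows of these genes (15.8%) compared with 1164 of all 35116 windows (3.31%). Starts 1 and 2 of UHRF1 are both among the 3, so by gene it was 2 of 8. Of genes measured on all 4 arrays, 6.70% held the letters, in 4.93% of their windows. The median CpG count was 28 in the 19 windows and 25 in those of measured genes. Below, 200 bases before and 10 after each start are given on the gene's strand in GRCh38.p14, with the matched letters in capitals.

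UHRF1, start 1, chr19:4909301-4909510, plus strand: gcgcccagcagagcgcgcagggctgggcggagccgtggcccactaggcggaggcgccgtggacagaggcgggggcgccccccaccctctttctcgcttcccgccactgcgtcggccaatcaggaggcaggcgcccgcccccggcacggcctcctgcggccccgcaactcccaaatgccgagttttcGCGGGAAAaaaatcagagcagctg
UHRF1, start 2, chr19:4909944-4910153, plus strand: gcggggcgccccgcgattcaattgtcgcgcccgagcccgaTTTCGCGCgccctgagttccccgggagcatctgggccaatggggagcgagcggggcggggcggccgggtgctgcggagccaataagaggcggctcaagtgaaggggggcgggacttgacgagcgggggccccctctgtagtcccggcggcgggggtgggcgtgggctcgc
DNMT1, chr19:10194944-10195153, minus strand: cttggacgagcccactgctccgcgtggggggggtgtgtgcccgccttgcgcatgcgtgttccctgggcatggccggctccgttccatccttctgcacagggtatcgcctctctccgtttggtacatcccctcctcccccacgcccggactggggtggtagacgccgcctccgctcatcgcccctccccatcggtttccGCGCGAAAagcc
HELLS, chr10:94545588-94545797, plus strand: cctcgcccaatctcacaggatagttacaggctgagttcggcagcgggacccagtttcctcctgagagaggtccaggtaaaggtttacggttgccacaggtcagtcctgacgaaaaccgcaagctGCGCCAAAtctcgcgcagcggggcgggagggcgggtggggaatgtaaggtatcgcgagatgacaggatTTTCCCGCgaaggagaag
DNMT3B, chr20:32779652-32779861, plus strand: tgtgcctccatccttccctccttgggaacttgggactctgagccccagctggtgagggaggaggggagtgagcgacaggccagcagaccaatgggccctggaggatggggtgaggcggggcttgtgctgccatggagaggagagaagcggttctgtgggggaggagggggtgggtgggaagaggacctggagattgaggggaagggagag

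Counting the first transcribed base as +1, the match began at -14 for the first UHRF1 start, at -160 for the second, and at -2 for DNMT1, where it ran across the start. HELLS held 2 matches, beginning at -76 and -8. It is 1 of 4 genes with a match among 10 partners of maintenance methylation. LIG1, another of the 4, held a match beginning at -114 and did not pass 1.5-fold with vehicle. ZBTB24, a partner that was also higher past 1.5-fold with vehicle, held none, nor did USP7 and TRDMT1. The third UHRF1 start and the windows of DNMT3A, DNMT3B, TET1, TET2, TET3 and MBD2 held none, which says only that these letters are not in those windows. The windows also differed in CpG content. The 1 DNMT3B window searched had 3 CpG sites, the 3 TET1 windows had 6 to 11 and the 3 UHRF1 windows had 36 to 46, compared with a median of 14 over all windows. Whether that DNMT3B window covers the main start of the gene was not checked, so it may not stand for the gene's promoter. A match is a run of letters and not a measured binding site.

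The 9 genes had 19 probes, of which 11 exceeded background clearly on every array and measured 7 genes. No array had DNMT3L or TET3, the other 2 genes, well above background. Over the whole array, between 21382 and 21881 of 50594 probes were well above background, and no spot was saturated. Epithelial identity was checked with 12 colorectal epithelial markers, of which 11 were well above background on every array and VIL1 on none. In the MG cells with vehicle 4 of the 11 were lower past 1.5-fold and none higher, where 8.24% of all measured genes were lower. Their log2 ratios ran from -1.09 for ELF3 to 0.33 for KRT8. With 5-azacytidine 3 were lower in the MG cells, where 7.33% of all measured genes were. The markers had summed normalised intensities of 1683 and 1629 on the non-MG arrays and 1481 and 1489 on the MG arrays. Of 12 stromal and blood markers, 5 were well above background on each array, while PTPRC, CD3E, PECAM1 and CDH5 were not on any. Of the 5, COL1A1 was lower in MG cells with vehicle, by a log2 ratio of -0.92. CD14, with intensities from 13.45 to 27.11, was higher with 5-azacytidine in both cell types. Its ratio was 0.87 for non-MG and 1.0022 for MG cells (spot errors 0.28 and 0.38). VWF and CD68 were higher with 5-azacytidine past 1.5-fold in MG cells, by 0.70 and 0.82, and had 0.36 and 0.30 in non-MG cells, a contrast with no test. CD79A, the brightest of the 5, went the other way, at -0.25 for non-MG and -0.14 for MG cells. Past 1.5-fold, 1.90% of all measured genes were higher with 5-azacytidine in non-MG cells and 3.02% in MG cells. The list's summed normalised intensity was 11.6 and 10.3 for non-MG and 8.67 and 8.80 for MG cells, vehicle first, and its part in the results was not tested. The arrays measure pools of cells, in which fewer cells of a type and less RNA per cell cannot be told apart.

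The values below are log2 intensities minus the 75th percentile of the same array, called normalised log2 intensity, and they compare arrays for 1 probe, not probes with each other. A log2 ratio is a difference of these values, averaged over the probes of a gene. Spot error, the SD among repeated spots, comes from probes printed 10 times at like intensity and is carried through to the ratio. It was 0.05 to 0.20 per spot at log2 intensities above 4 and 0.32 from 3 to 4, and it covers printing and scanning only. Changes are counted past 1.5-fold, which is 0.585 on the log2 scale.

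With vehicle, UHRF1 was the gene of the 9 that passed 1.5-fold between the subpopulations, at 1.58-fold higher in the MG cells. DNMT1 was 1.27-fold higher and did not pass. Of the other 5 measured genes, DNMT3B, TET2 and MBD2 lay above 0 on the log2 scale and DNMT3A and TET1 below, none past 1.5-fold. Over 15707 genes or unnamed transcripts measured on all arrays, 13.9% passed 1.5-fold in this comparison, 5.68% higher and 8.24% lower, so 1 of 7 is near the background share. The median log2 ratio was 0.11 over the 7 genes and -0.01 over all measured genes.

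UHRF1 was measured by 2 probes. The brighter one, A_23_P208880, had normalised log2 intensities of 3.47 for vehicle and 3.82 for 5-azacytidine on the non-MG arrays, and 4.10 and 3.78 on the MG arrays. The dimmer one, A_33_P3379454, had 0.68, 0.97, 1.36 and 1.43 on the same arrays. Both were lowest on the non-MG vehicle array, and they parted on the MG 5-azacytidine array, where the brighter probe fell back and the dimmer one did not. With vehicle the probes gave MG to non-MG log2 ratios of 0.63 (spot error 0.08) and 0.69 (spot error 0.10), with a mean of 0.66 (spot error 0.06). Of all measured genes, 4.04% had a higher ratio. The mean lies near the threshold, and 2-fold was not reached.

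DNMT1 was measured by 1 probe with normalised log2 intensities of 2.64 and 2.77 on the vehicle and 5-azacytidine arrays of non-MG cells, and 2.98 on both arrays of MG cells. Both MG arrays were thus above both non-MG arrays. The MG to non-MG log2 ratio was 0.34 with vehicle and 0.21 with 5-azacytidine (spot error 0.08 for each), and 16.6% of all measured genes had a higher ratio with vehicle. Both ratios exceed the spot error, which does not cover differences between cultures.

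**Figure D1:**
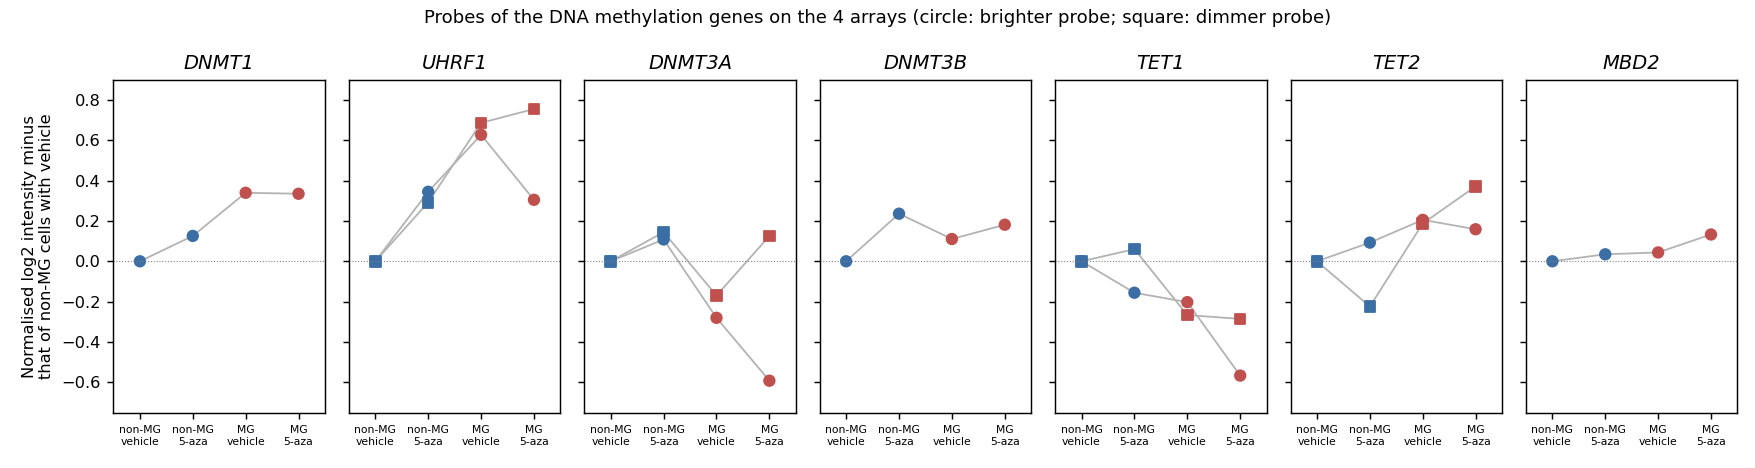
Normalised log2 intensity of each probe on the 4 arrays (x axis) minus its value on the non-MG vehicle array (y axis, log2 units), with non-MG cells in blue and MG cells in red, circles for the brighter and squares for the dimmer probe of a gene, and lines joining the points of 1 probe. Both UHRF1 probes and the DNMT1 probe were higher on the MG vehicle array than on either non-MG array, whereas the probes of DNMT3A and of UHRF1 parted in the MG cells with 5-azacytidine.

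The de novo writers differed less between the cell types with vehicle. DNMT3B, measured by 1 probe, had normalised log2 intensities of 2.39 and 2.62 on the vehicle and 5-azacytidine arrays of non-MG cells, and 2.50 and 2.57 in the MG cells. These values overlap between the cell types, with an MG to non-MG log2 ratio of 0.11 with vehicle (spot error 0.09). With 5-azacytidine it was -0.05 (spot error 0.09), and it turned to 0.17 with normexp background correction and to 0.20 with median centring.

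DNMT3A had 2 probes above background on all arrays. For A_33_P3272330 the normalised log2 intensities were 0.28 and 0.39 on the vehicle and 5-azacytidine arrays of non-MG cells, and -0.003 and -0.31 in the MG cells. For A_23_P154500 they were -0.46, -0.31, -0.63 and -0.33 in the same order. The first probe was lower on both MG arrays, and the values of the second overlapped. Their mean MG to non-MG log2 ratio was -0.23 with vehicle (spot error 0.11) and -0.36 with 5-azacytidine (spot error 0.10), where single probes gave -0.70 and -0.02. Another DNMT3A probe, A_23_P420373, was annotated to another transcript of the gene. It had intensities of 8.64 and 9.06 on the non-MG arrays and 13.4 on the MG vehicle array, none well above background, and 27.8 in the MG cells with 5-azacytidine. By this probe the MG cells with 5-azacytidine were 2.13-fold above MG cells with vehicle, a plain ratio of single spots and not a lower bound. They were at least 2.18-fold above non-MG cells with 5-azacytidine, counted from the lowest signal well above background there. The error per spot was 0.32 at the intensity of 13.4 and 0.20 at that of 27.8. With A_23_P420373 in the mean, the DNMT3A ratio between the cell types with 5-azacytidine turned from -0.36 to 0.18. The ratio with vehicle became -0.0009 with that probe, and -0.03 after median centring without it.

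DNMT3L, the catalytically inactive cofactor, stayed near background throughout, with intensities from 3.03 to 5.37, where the lowest signal well above background was between 9.95 and 11.8. No ratio is given for it.

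Among the erasers, TET1 was lower in the MG cells by both probes that could be measured, short of 1.5-fold. The brighter probe, A_33_P3295550, had normalised log2 intensities of 2.63 and 2.47 on the vehicle and 5-azacytidine arrays of non-MG cells, and 2.43 and 2.06 in the MG cells. The dimmer probe, A_19_P00806490, had -1.34, -1.28, -1.60 and -1.62. Both MG arrays lay below both non-MG arrays for each probe. The mean MG to non-MG log2 ratio was -0.23 with vehicle (spot error 0.10) and -0.38 with 5-azacytidine (spot error 0.15), at -0.04 with vehicle after median centring. Another TET1 probe was well above background on no array.

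TET2 ran the other way by its 2 measured probes. A_23_P350187 had normalised log2 intensities of -0.81 and -0.72 on the vehicle and 5-azacytidine arrays of non-MG cells, and -0.61 and -0.65 in the MG cells, and A_33_P3238685 had -1.23, -1.46, -1.05 and -0.86. The MG arrays were above the non-MG arrays for both probes. The mean MG to non-MG log2 ratio was 0.20 with vehicle (spot error 0.12) and 0.33 with 5-azacytidine (spot error 0.15). A dim further probe, A_33_P3238690, clearly exceeded background on the non-MG 5-azacytidine array alone. There it was 1.63-fold above non-MG cells with vehicle, a plain ratio of single spots and not a lower bound. It was at least 1.79-fold above MG cells with 5-azacytidine. With all 4 TET2 probes in the mean, the ratios became -0.06 with vehicle and -0.29 with 5-azacytidine, so the direction for TET2 rests on which probes are used. The 2 probes of TET3 had intensities from 2.39 to 6.30 and gave no ratio.

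**Figure D2:**
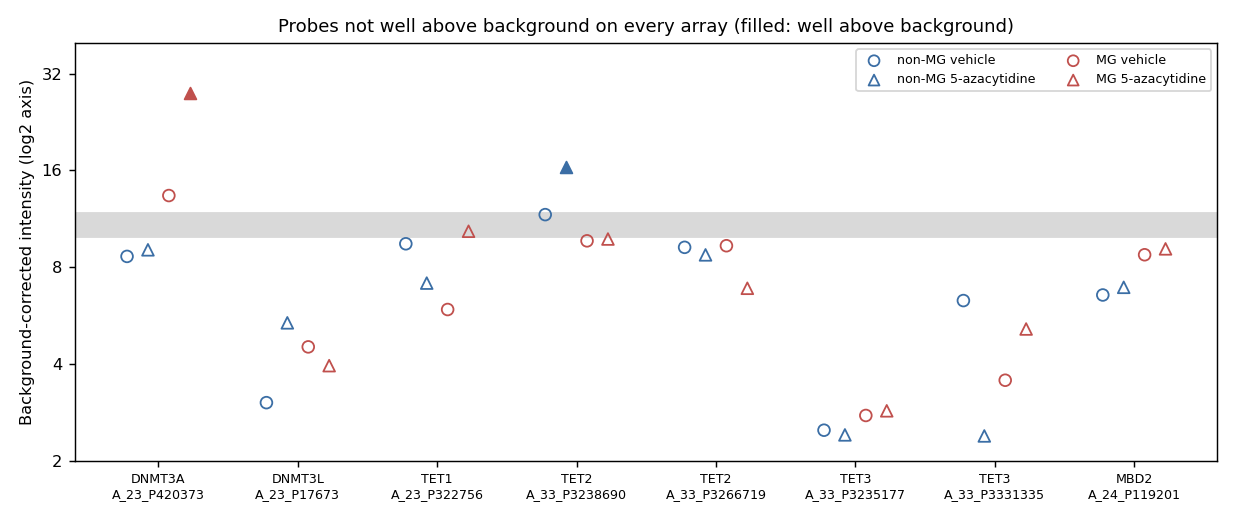
Background-corrected intensity (y axis, log2 scale) of the 8 probes not well above background on every array (x axis), with blue for non-MG and red for MG cells, circles for vehicle, triangles for 5-azacytidine, and filled symbols for signals well above background. The grey band spans the detection limits of the 4 arrays, 9.95 to 11.8, and only a DNMT3A probe in MG cells and a TET2 probe in non-MG cells, both with 5-azacytidine, are filled.

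MBD2, the reader, varied least of the 7. Its measured probe had normalised log2 intensities of 4.38 and 4.41 on the vehicle and 5-azacytidine arrays of non-MG cells, and 4.42 and 4.51 in the MG cells, a range of 0.13 over the 4 arrays. The MG to non-MG log2 ratio was 0.04 with vehicle (spot error 0.07), and -0.02 after quantile normalization. A second MBD2 probe, annotated to another transcript, was well above background on no array.

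After 5-azacytidine of both cell types, none of the 7 measured genes passed 1.5-fold between MG and non-MG cells, where 13.1% of all measured genes passed, 5.74% higher and 7.33% lower. The ratios ran from -0.38 for TET1 to 0.33 for TET2, and the median was 0.10 compared with 0.02 over all measured genes. UHRF1 had a ratio of 0.21 (spot error 0.06), made of -0.04 for the brighter probe and 0.46 for the dimmer one. By single probes, DNMT3A passed 1.5-fold lower and TET2 higher, each through 1 of its 2 probes.

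**Figure D3:**
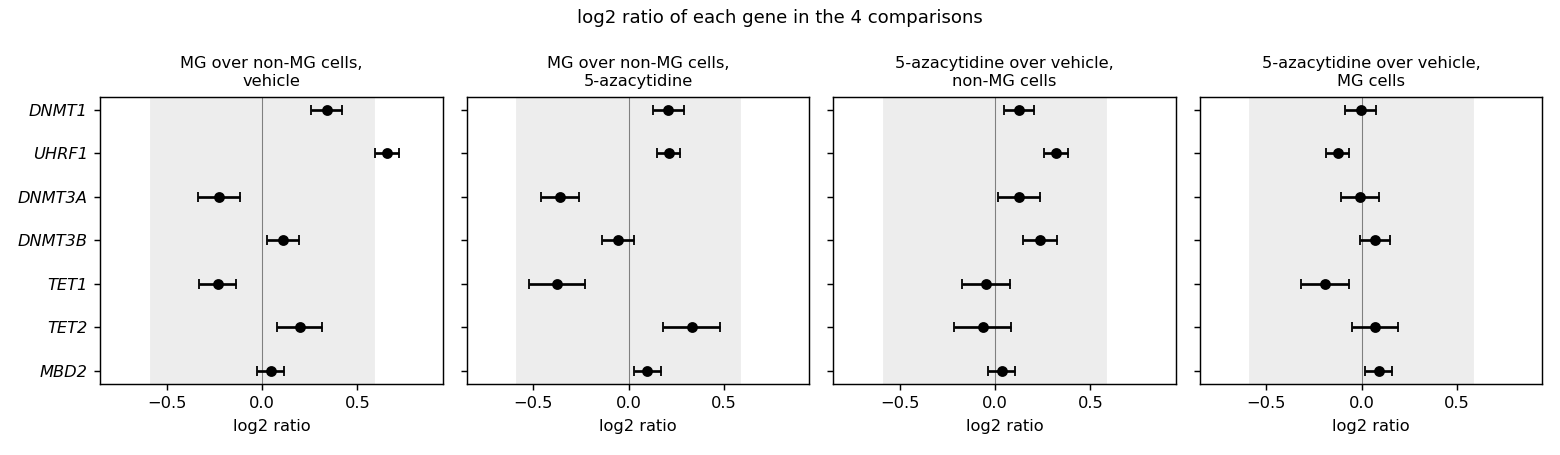
log2 ratio (x axis) of the 7 measured genes (y axis) in the 4 comparisons, with bars for spot error and grey for ratios within 1.5-fold. The MG to non-MG ratio of UHRF1 with vehicle, at 0.66, is the point outside the grey band.

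The response to the inhibitor was small in these genes. In the non-MG cells no gene of the 7 passed 1.5-fold, where 3.58% of all measured genes did, 1.90% higher and 1.68% lower. The ratios of 5-azacytidine over vehicle ran from -0.07 for TET2 to 0.32 for UHRF1 (spot error 0.06), with DNMT3B at 0.24 (spot error 0.09), DNMT1 at 0.13 (spot error 0.08) and DNMT3A at 0.13 (spot error 0.11). Both UHRF1 probes were higher with 5-azacytidine, at 0.34 and 0.29, and 7.24% of all measured genes had a higher ratio than their mean. The UHRF1 response here and its MG to non-MG ratio with vehicle share the non-MG vehicle array, where both probes were lowest.

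In the MG cells no gene of the 7 passed 1.5-fold either, where 5.12% of all measured genes did, 3.02% higher and 2.10% lower. DNMT1, whose protein is the main target of the drug, had a log2 ratio of -0.0048 (spot error 0.08), and 98.1% of all measured genes had a larger absolute ratio. DNMT3B had 0.07 (spot error 0.08), MBD2 0.09 (spot error 0.07), UHRF1 -0.13 (spot error 0.06) and TET1 -0.19 (spot error 0.13). The DNMT3A mean of -0.0083 hid opposite values of 0.30 and -0.31 for its 2 probes. For UHRF1 the brighter probe gave -0.32 and the dimmer one 0.07.

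The partners of maintenance methylation, a list of 10 genes, were compared next to DNMT1 and UHRF1. The list includes PCNA, the sliding clamp at which DNMT1 docks, HELLS, and CDCA7, which recruits HELLS. Of the 8 measured, 4 were higher in the MG cells with vehicle past 1.5-fold and none lower. Of all measured genes, 5.68% were higher and 8.24% lower. All 8 partners were above 0, and their median log2 ratio was 0.57 compared with -0.01 over all measured genes. The lowest were CDCA7L, at 0.03 and within its spot error of 0.07, and LIG1, at 0.28 (spot error 0.07). With normexp correction 2 passed, with median centring 6 and with quantile normalization 4. Normexp correction lowered the count of all measured genes past 1.5-fold with vehicle, in either direction, from 2187 to 793. Median centring raised the median of all measured genes between the cell types to 0.18 with vehicle and 0.27 with 5-azacytidine. The shares of 5.68% and 8.24% are for the main scaling and do not apply to those counts. After 5-azacytidine of both cell types 1 of the 8 passed with a median of 0.32, compared with 4 and a median of 0.57 under median centring.

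PCNA was measured by 3 probes and had mean normalised log2 intensities of 4.54 and 4.89 on the vehicle and 5-azacytidine arrays of non-MG cells, and 5.40 and 5.48 in the MG cells. CDCA7 had 1.80, 2.10, 2.54 and 2.49 in the same order. The probes of HELLS had intensities of 259.7, 261.1, 509 and 417.8, and of 145, 173.3, 261 and 220.7. PCNA and CDCA7 were higher on both MG arrays than on both non-MG arrays, whereas 1 HELLS probe had an MG to non-MG log2 ratio of -0.01 with 5-azacytidine. The MG to non-MG log2 ratio with vehicle was 0.86 for PCNA (spot error 0.04), 0.73 for HELLS (spot error 0.07) and 0.73 for CDCA7 (spot error 0.09). ZBTB24, which activates CDCA7, is a member of the list that the rule for named genes leaves out and is named here after its values were seen, with 0.66 (spot error 0.13). USP7, a deubiquitinase that binds DNMT1 and UHRF1, had 0.41 with vehicle and 0.75 with 5-azacytidine (spot errors 0.28 and 0.38), from a probe with intensities between 11.9 and 26.9. TRDMT1, on the list by its homology to the methyltransferases, is known to methylate tRNA and had 0.47 with vehicle. DPPA3 and CTCFL were well above background on no array.

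Genes of proliferation moved in the same direction. Of 16, which do not include PCNA, 8 were higher in the MG cells with vehicle past 1.5-fold and none lower, where 5.68% of all measured genes were higher and 8.24% lower, and the median log2 ratio was 0.57. The count was 8 with normexp correction, 11 with median centring and 6 with quantile normalization. The shares of all measured genes just given are for the main scaling. Median centring raised the median of all measured genes to 0.18 with vehicle and 0.27 with 5-azacytidine. In the main scaling with vehicle RRM2, a subunit of ribonucleotide reductase, had 0.93 (spot error 0.09), and the helicase genes MCM4 and MCM6 had 0.90 and 0.88. With 5-azacytidine 6 of the 16 passed and the median was 0.46, whereas 8 passed with normexp correction, 12 with median centring and 3 with quantile normalization. Their summed normalised intensity was 515.1 and 513 on the vehicle and 5-azacytidine arrays of non-MG cells, and 749 and 694 in the MG cells. UHRF1, DNMT1 and their partners lie in the same direction as this list, and its part in their differences was not tested. The arrays did not measure growth, and the paper reports no difference in growth rate between MG and non-MG cells.

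**Figure D4:**
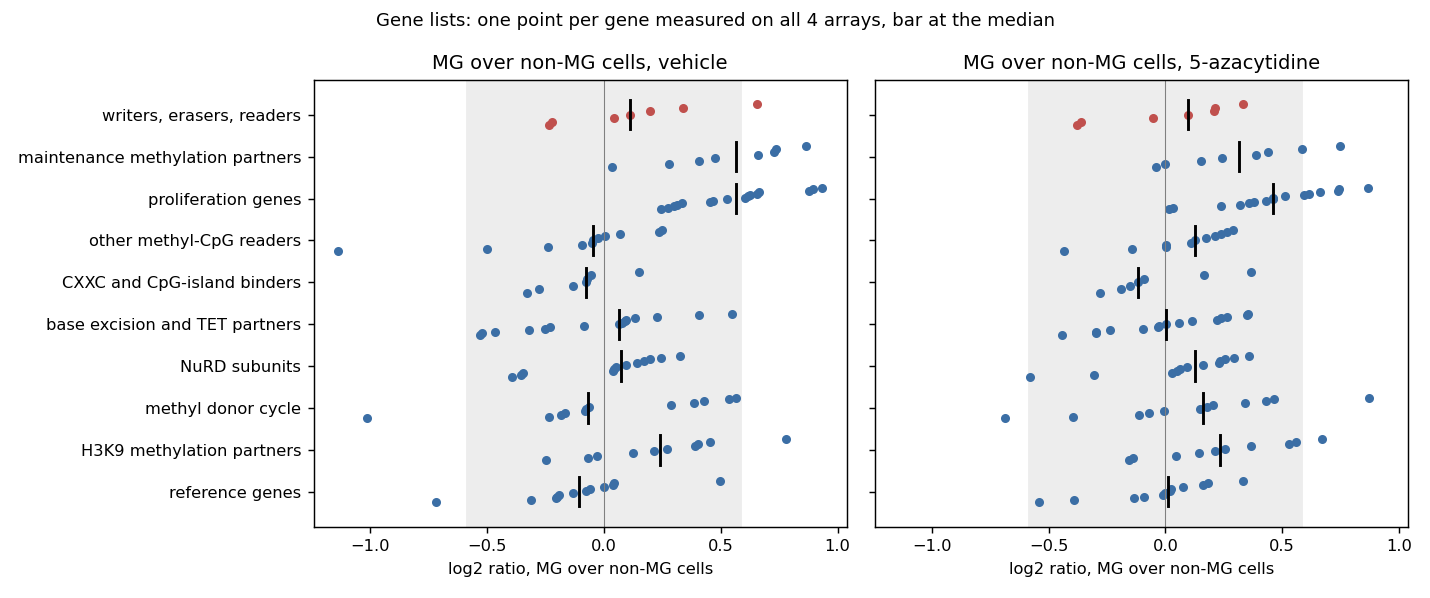
MG to non-MG log2 ratio (x axis) with vehicle (left) and with 5-azacytidine (right) for the genes of each list (y axis), with 1 point per gene, red for the writers, erasers and readers, a black bar at the list's median and grey for ratios within 1.5-fold. With vehicle, the medians of the maintenance partners and of the proliferation genes lie at 0.57, compared with 0.11 for the writers, erasers and readers.

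The other lists of the pathway had medians closer to that of all measured genes, and their counts are those of the main scaling unless another is named. Shares of all measured genes are for the main scaling too. Counts between the cell types with median centring include its rise in the median of all measured genes, to 0.18 with vehicle and 0.27 with 5-azacytidine. Of 11 other methyl-CpG readers measured, 1 was lower and none higher in the MG cells with vehicle. This was ZBTB33, which encodes the methyl-CpG binding repressor Kaiso, with normalised log2 intensities of 0.61 and 0.26 on the vehicle and 5-azacytidine arrays of non-MG cells, and -0.53 and 0.54 in the MG cells. Its 1 probe was lowest on the MG vehicle array, so its MG to non-MG ratio of -1.14 and its ratio of 1.07 for the drug response of MG cells share that array. BAZ2A, the large subunit of the nucleolar remodeling complex, was lowest on the non-MG 5-azacytidine array, with a log2 ratio of 5-azacytidine over vehicle there of -0.76 (spot error 0.11). None of 7 CpG-island binders passed 1.5-fold in the 4 comparisons, except that with median centring 1 was higher in MG cells with 5-azacytidine.

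Of 15 genes of base excision and TET partners, all measured, none passed between the cell types. Of all measured genes 13.9% passed with vehicle and 13.1% with 5-azacytidine. With median centring 2 were higher with vehicle and 2 with 5-azacytidine, and with vehicle 1 was higher with normexp correction and 1 lower with quantile normalization. TDG, the glycosylase that removes oxidized 5-methylcytosine, had intensities of 913.3 and 914.2 on the non-MG arrays and 869.4 and 1494 on the MG arrays. It was highest in the MG cells with 5-azacytidine, at a log2 ratio over vehicle of 0.81 (spot error 0.08), the 1 gene of the list past 1.5-fold in the MG cells. In the non-MG cells its ratio was 0.21 (spot error 0.08).

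None of 12 NuRD subunits, the complex that MBD2 brings to methylated DNA, passed between the cell types, while with median centring 1 was higher in MG cells with 5-azacytidine. GATAD2B, a subunit that links MBD2 to the complex, had log2 ratios of 5-azacytidine over vehicle of -0.52 for non-MG and -0.75 for MG cells (spot error 0.24 for each), and passed 1.5-fold in the latter. Of 12 measured genes of the methyl donor cycle, none was higher in MG than in non-MG cells with vehicle, and 1 with 5-azacytidine. With vehicle 2 were higher with normexp correction and 3 with median centring, which gave 4 with 5-azacytidine. MTRR, which reactivates methionine synthase, was higher in the MG cells with 5-azacytidine, by 0.87 (spot error 0.15). AHCYL2, a relative of the enzyme that clears S-adenosylhomocysteine, was lower after 5-azacytidine in both cell types. Its log2 ratio was -0.59 for non-MG cells, just past 1.5-fold, and -0.49 for MG cells (spot error 0.10 for each). With normexp correction or quantile normalization no gene of the list was lower past 1.5-fold in non-MG cells. Of 10 genes of H3K9 methylation, SUV39H2, a H3K9 methyltransferase, was higher in MG cells both with vehicle and with 5-azacytidine, by 0.78 and 0.67, and the other 9 stayed within 1.5-fold. With median centring 3 of the 10 were higher with vehicle and 4 with 5-azacytidine, where all measured genes had medians of 0.18 and 0.27. With quantile normalization 2 were higher with 5-azacytidine. Of 12 reference genes, 1 passed, PGK1, with a log2 ratio of -0.72 in the MG cells with vehicle. Of all measured genes 8.24% were lower there. With median centring none was lower there, and 1 was higher with vehicle and 1 with 5-azacytidine.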

How the data were processed

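Cy3-labelled cRNA from 400 ng of RNA per condition was hybridized to SurePrint G3 arrays. For RNA extraction RNAiso Plus is given in the labels and an RNeasy kit in the paper's methods. The authors deposited Agilent Feature Extraction output, a linear intensity per spot that is background-corrected and not normalized between arrays. They also deposited log2 values, filtered with GeneSpring and centred per probe, whose differences equalled those of log2 intensity within 0.01 (allowing a constant offset for each array pair) for 100% of 24161 probes.

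Control spots and outlier spots were left out, which removed 5 probes. The log2 intensity minus the 75th percentile of the array was averaged over spots, and ratios over the probes of a gene that were well above background on all 4 arrays. Probe accessions were matched without version to RefSeq of GRCh38.p14, which named 30000 of 50594 probes. Probe coordinates are left out, as the design uses an earlier build. With 1 array per group no test was made, and the number of arrays limits precision. At least N-fold compares a signal with the higher of the lowest signal well above background and the probe's own signal on the dimmer array. The counting was tested on simulated data.

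Genes named are the 9, list genes past 1.5-fold in any comparison (at most 4 per list, by size), and the 3 genes nearest to any of the 9 that varied past 1.5-fold. A list gene that the rule names is not reported here. The genes, lists and motif were chosen with earlier results of these data known. Alternatives were normexp correction with an offset of 50 (on median spot intensity), median centring, quantile normalization, no filter or a percentile filter on dim probes, the brightest or any probe, signals raised to the detection limit, the authors' values, and 2-fold and 1.4-fold thresholds. Values were computed in Python 3.11.15 with pandas 2.3.3 and numpy 2.4.6, figures drawn with matplotlib 3.10.9, and normexp and quantile steps run with limma 3.58.1 in R 4.3.3.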

Additional observations from a re-analysis of the deposited data

Results flagged for a closer look

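The mean of the 2 UHRF1 probes moved in opposite directions with 5-azacytidine in the 2 cell types. Its log2 ratios were 0.32 for non-MG and -0.13 for MG cells, a difference of -0.45 (spot error 0.09). This difference could not be tested with 1 array per condition. The opposite sign came from the brighter probe, with 0.34 and -0.32, whereas the dimmer one had 0.29 and 0.07. The non-MG response and the MG to non-MG ratio of 0.66 with vehicle share the non-MG vehicle array, where both probes were lowest. Among the 8 measured partners of maintenance methylation, the same difference ran from -0.57 for HELLS to 0.34 for USP7.

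A DNMT3A probe outside the comparisons, A_23_P420373, was well above background in the MG cells with 5-azacytidine alone. It was 2.13-fold above vehicle as a plain ratio and at least 2.18-fold above the non-MG cells with 5-azacytidine. A TET2 probe, A_33_P3238690, clearly exceeded background on the non-MG 5-azacytidine array alone. It was 1.63-fold above vehicle as a plain ratio and at least 1.79-fold above the MG cells with 5-azacytidine.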

How the results depend on the processing

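With vehicle, the count of 1 gene past 1.5-fold between MG and non-MG cells, UHRF1 in each case, held under every alternative except the 2-fold threshold, where it was 0. Its log2 ratio ran from 0.62 with normexp correction to 0.85 with median centring. With 5-azacytidine, the count of 0 between the cell types became 1 with median centring (TET2), 1 with no filter on dim probes (DNMT3L, below background on each array), 1 by the brightest probe (DNMT3A) and 2 by any probe (DNMT3A and TET2). For 5-azacytidine in the non-MG cells the count of 0 became 1 with no filter (DNMT3L), and in the MG cells it was 0 under all alternatives. Of 280 ratios of the 7 genes under an alternative, 74 moved by more than the spot error and 28 changed sign, 12 of them with a main value beyond the spot error. These were in DNMT3A, TET1, TET2, UHRF1 and MBD2, all but 2 of them with dim probes added. For UHRF1 the brightest probe gave -0.04 between the cell types with 5-azacytidine. Median centring raised the median of all measured genes from -0.01 to 0.18 between the cell types with vehicle and from 0.02 to 0.27 with 5-azacytidine.

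Over all genes, the counts in the 4 comparisons ran from 562 to 2187. They were 133 to 903 with normexp correction, 92 to 381 at 2-fold, 1027 to 3253 at 1.4-fold, 737 to 3402 with median centring, 2003 to 3945 with the percentile filter, and 7907 to 9911 with no filter, or 998 to 2739 with signals also raised to the detection limit, a combination chosen after seeing the data. Raising signals alone changes nothing by construction. No paired analysis was possible because each group has 1 array. The slide could not be a block, since there is 1 slide.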

Other observations

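Among 12750 other named genes, those whose pattern over the 4 arrays was nearest to that of UHRF1 were DDX6, MARS1 and TMEM19, with root mean square distances of 0.01, 0.03 and 0.03 on the log2 scale, and 373 genes lay within 0.1. With 4 arrays this is a description. MARS1, a methionyl-tRNA synthetase gene, had MG to non-MG log2 ratios of 0.73 with vehicle and 0.23 with 5-azacytidine.

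Of measured genes with a promoter window, 673 held one of the 4 E2F spellings and 9376 did not. With vehicle, 90 of the 673 (13.4%) were higher in the MG cells past 1.5-fold and 31 (4.61%) lower, compared with 517 (5.51%) and 706 (7.53%) of the others. Between the cell types with 5-azacytidine, 58 of the 673 (8.62%) were higher and 22 (3.27%) lower, compared with 558 (5.95%) and 519 (5.535%). The shares are given without a test. For 5-azacytidine over vehicle in non-MG cells, 6 (0.89%) were higher and 8 (1.19%) lower, compared with 152 (1.62%) and 136 (1.45%). With 5-azacytidine over vehicle in the MG cells, 12 of the 673 (1.78%) were higher and 7 (1.04%) lower, compared with 255 (2.72%) and 123 (1.31%).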
